A study of Mus musculus with 6 samples.

Results

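The channels that carry calcium into neurons and release it from internal stores form a set of 37 genes in the deposited count table of mouse dorsal root ganglia (DRGs). They comprise the 10 alpha1 pores of the voltage-gated calcium channels (Cacna1a to Cacna1i and Cacna1s), 4 alpha2delta subunits (Cacna2d1 to Cacna2d4), 4 beta subunits (Cacnb1 to Cacnb4), 8 gamma subunits (Cacng1 to Cacng8), 3 ryanodine receptors (Ryr1 to Ryr3), 3 IP3 receptors (Itpr1 to Itpr3), 3 Orai channels and 2 Stim sensors. Members were chosen by gene symbol, and those with fewer than 10 counts in total were not tested. All 37 were found among the 47937 rows of the table, and 36 of them reached 10 counts in total over the 6 libraries and were tested with 20006 genes in all. The exception, Cacng6, had 3, 0 and 0 counts in control DRGs against 2, 3 and 1 in Tlx3cko DRGs, and a count of 0 allows up to 3 counts at this depth, so no fold was computed.

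Total RNA came from cervical, thoracic and lumbar DRGs, the ganglia that house the cell bodies of somatosensory neurons, of C57BL/6 mice about 2 months old. The 3 control libraries carry the genotype label wild type, which names neither a floxed allele nor Cre. The 3 Tlx3cko libraries carry the genotype Tlx3f/f;SNS-cre, in which both copies of Tlx3, a homeobox transcription factor of sensory neurons, are floxed and Cre is driven by the SNS (Nav1.8) promoter, which is active in the nociceptor lineage from late embryonic life, so that other neurons and non-neuronal cells keep the gene. The study asked how transcripts in the DRG depend on Tlx3, and the comparison here puts the calcium genes of Tlx3cko DRGs beside those of control DRGs.

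Voltage-gated calcium channels open on depolarization through an alpha1 pore, while alpha2delta and beta subunits govern how many channels reach the membrane and how they gate. In sensory neurons, N-type and P/Q-type pores trigger transmitter release at the central terminals, and T-type pores open near the resting potential and shape excitability. Inside the cell, ryanodine receptors release stored calcium in response to calcium itself, IP3 receptors release it downstream of phospholipase C, and Stim proteins sense an emptied store and open Orai channels in the plasma membrane.

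The libraries held between 11458299 and 18775628 counts, and the 37 genes took between 0.193% and 0.219% of them. Tlx3 itself was measured at 1973, 2256 and 1941 normalized counts in control DRGs against 1652, 1380.4 and 1452 in Tlx3cko DRGs. The groups did not overlap, and the log2 fold change was -0.46 (SE 0.09; edgeR adjusted p = 0.0122, and between 0.0585 and 0.174 in 4 alternatives that left out libraries). Control replicates 1 and 2 had Xist counts and no Ddx3y counts, and the other 4 libraries had Ddx3y counts and at most 2 Xist counts, so that sex was not balanced between genotypes. Where a call below was lost with control replicate 3 alone against the 3 Tlx3cko libraries, that value is given as well. Summed over 5 markers of all sensory neurons, the libraries lay between 131340 and 146830 normalized counts with no marker called by edgeR (2 were under an unadjusted p of 0.05, and DESeq2 called 1 higher and limma-voom 0), and 3 of the 5 spinal cord markers were under 10 counts. In whole DRGs, fewer cells of a type and less RNA per cell cannot be told apart. The study's methods give n = 3 for each genotype, and the p-values measure the spread between these 3 libraries a group.

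Most calcium genes were not called. Of the 36 tested, 1 was lower in Tlx3cko DRGs, Cacna1i, and 5 were higher, Cacng2, Ryr3, Ryr2, Cacna2d2 and Itpr3 (edgeR's quasi-likelihood test, adjusted p under 0.05 after Benjamini-Hochberg adjustment over all 20006 genes; called the edgeR adjusted p throughout). Over all genes, 2.56% were called lower and 1.69% higher, so the lower calls, 1 of 36, lay near the share of all genes. The remaining 30 tested members were not called. Normalized counts of the 3 Tlx3cko libraries lay wholly below those of the 3 control libraries for 5 members and wholly above them for 10, against 10.8% and 8.87% of all genes. The median log2 fold change was 0.11 over the 36 members, 25 of them positive, and -0.0037 over all genes. By family, the alpha1 pores gave 1 lower and none higher of 10, the ryanodine receptors 2 higher of 3, and the alpha2delta, gamma and IP3 receptor families 1 higher each of 4, 7 and 3 tested. No beta, Orai or Stim gene was called by edgeR. At an unadjusted p under 0.05, which 14.5% of all genes and 15 of the 36 members met, 2 of the 4 beta genes (Cacnb1 and Cacnb2), 2 of the 3 Orai genes (Orai1 and Orai2) and 0 of the 2 Stim genes were found, and of these DESeq2 and limma-voom each called Orai2 alone.

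**Figure D1:**
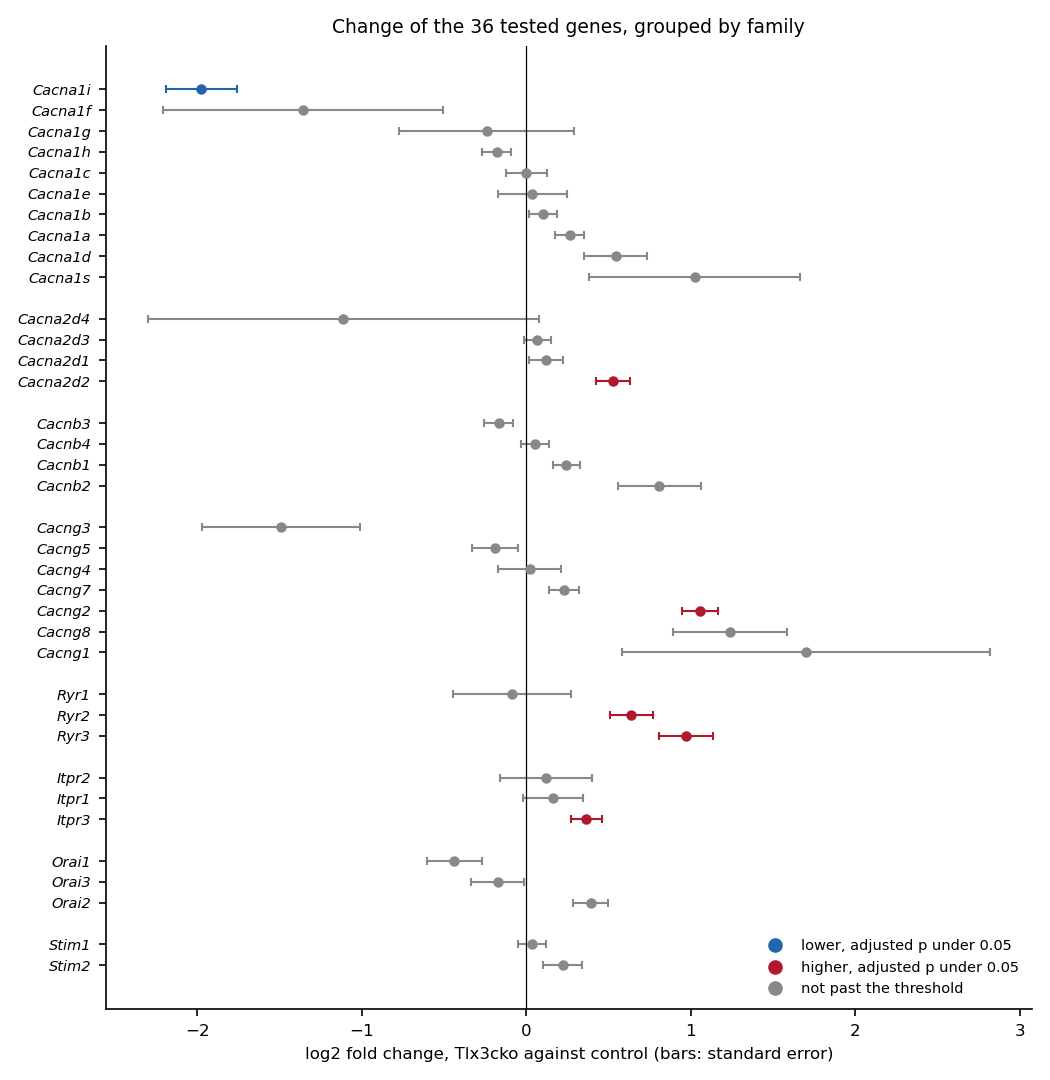
Log2 fold change of Tlx3cko against control DRGs for the 36 tested calcium genes, grouped by family from the alpha1 pores at the top to the Stim sensors at the bottom. Points are edgeR estimates from 3 libraries a group and bars are standard errors. Cacna1i (blue) stands at -1.98, the 5 genes called higher (red) lie between 0.37 and 1.05, and the widest bars belong to genes with few counts such as Cacna2d4 and Cacng1.

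RefSeq start sites gave 38 promoter windows of 250 bases for 29 of the 37 genes on GRCm38.p6. They held a median of 15 CG pairs (0 to 50), against 6 (0 to 56) over all 32817 RefSeq windows. The letters TAATTA and also the letters TAATTG, forms of the core bound by many homeobox factors, were searched on both strands, and 1 member window held either (2.63%, Cacna1d) against 11.3% of all windows. The letters TATAAA occurred in 1 member window (2.63%, the same Cacna1d window) against 12.4% of all, again on both strands. A match is a description of these letters and not of a bound site. The 250 bases upstream of the RefSeq start are shown for the called members whose window overlaps no annotated exon, with CG pairs in capitals, since the median member window held more CG pairs than the median of all windows: Cacna1i, called lower, at chr15:80286988-80287237 on the plus strand with 16 CG pairs, Itpr3, called higher, at chr17:27057054-27057303 on the plus strand with 25, and Ryr2, called higher, at chr13:12106946-12107195 on the minus strand with 14. All 3 lie above the median of all windows, and none holds the homeobox letters.
Cacna1i: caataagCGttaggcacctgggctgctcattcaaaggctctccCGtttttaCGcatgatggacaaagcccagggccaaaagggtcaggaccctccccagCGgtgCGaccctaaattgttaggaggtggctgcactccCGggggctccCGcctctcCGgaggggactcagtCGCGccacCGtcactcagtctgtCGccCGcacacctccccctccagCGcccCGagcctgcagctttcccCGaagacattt
Itpr3: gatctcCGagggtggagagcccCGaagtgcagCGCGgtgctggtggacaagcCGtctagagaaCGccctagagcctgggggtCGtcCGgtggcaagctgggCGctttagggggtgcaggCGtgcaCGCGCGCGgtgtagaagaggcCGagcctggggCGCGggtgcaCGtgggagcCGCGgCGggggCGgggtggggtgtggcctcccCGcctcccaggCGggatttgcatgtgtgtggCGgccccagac
Ryr2: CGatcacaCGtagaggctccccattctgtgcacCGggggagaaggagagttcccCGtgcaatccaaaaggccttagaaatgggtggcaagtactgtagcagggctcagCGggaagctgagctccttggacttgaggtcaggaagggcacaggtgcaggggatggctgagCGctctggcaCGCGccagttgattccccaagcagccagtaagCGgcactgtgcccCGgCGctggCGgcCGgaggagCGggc

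Among the pores, Cacna1i, which encodes 1 of the 3 T-type (low voltage-activated) pores, fell most in Tlx3cko DRGs. The gene (ENSMUSG00000022416, chr15:80287238-80398279, plus strand, GRCm38) had 262, 461 and 390.1 normalized counts in control DRGs against 115, 89.2 and 77.7 in Tlx3cko DRGs. Every control library was above every Tlx3cko library, the lowest control value being more than 2 times the highest Tlx3cko value. The group means were 371 ± 101 and 94.2 ± 19.3 normalized counts (SD, n = 3), so that 25.4% of the control level remained, with a log2 fold change of -1.98 (SE 0.22; edgeR adjusted p = 1.33e-04). The call held in all 14 alternatives, with log2 fold changes of -2.16 to -1.79 when each library was left out, and -2.05 with control replicate 3 alone (edgeR adjusted p = 0.00065). Markers of the NP1 class of non-peptidergic nociceptors fell in the same libraries, 6 of 6 called lower, with summed levels of 17229.7 to 21218 normalized counts in control and 8588 to 9273 in Tlx3cko libraries, as did 2 of 3 NP2, 4 of 5 NP3 and 3 of 3 TH C-LTMR markers. The remaining NP2 marker, Mrgprx1, went the other way without overlap and was not called (log2 fold change 0.95; edgeR adjusted p = 0.0798). It had 358, 124 and 198 normalized counts in control DRGs against 495, 374 and 432 in Tlx3cko DRGs. The part of these neuron classes in the Cacna1i value was not tested.

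The other T-type pores were not called. Cacna1h, the T-type pore with the highest level per kilobase, had 1356, 1629 and 1449 normalized counts in control DRGs against 1239.6, 1331 and 1344 in Tlx3cko DRGs. The groups did not overlap, but the log2 fold change was -0.18 (SE 0.09) and was not called (edgeR adjusted p = 0.395). Cacna1g, the remaining T-type pore, was near the limit of counting, at 13.0, 25.9 and 20.7 normalized counts in control DRGs against 8.66, 31.5 and 11.8 in Tlx3cko DRGs, with overlapping groups. As counts per kilobase of exon, a scale on which genes can be compared, Cacna1i made up 19.5% ± 3.07 in control and 6.62% ± 1.58 in Tlx3cko libraries of the 3 T-type pores and Cacna1h 79.5% ± 3.28 in control and 92.2% ± 1.46 in Tlx3cko libraries. The Cacna1i share was 16.0%, 21.6% and 20.8% in control DRGs against 8.39%, 6.10% and 5.37% in Tlx3cko DRGs. The groups did not overlap, which with 3 against 3 gives the smallest p an exact two-sided permutation test can reach, 0.1. Summed over the 3 T-type pores, the level per kilobase was 191 ± 24.7 in control and 145 ± 4.73 in Tlx3cko libraries, without overlap (exact permutation p = 0.1). The T-type group was formed after these values had been seen.

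The high voltage-activated pores were not called. Cacna1b, the N-type pore on which transmitter release from nociceptor terminals relies, had 2532, 2236 and 2669.8 normalized counts in control DRGs against 2577, 2828 and 2592 in Tlx3cko DRGs, with overlapping groups and a log2 fold change of 0.10 (95% interval -0.08 to 0.29). Cacna1a, the P/Q-type pore, had 2309, 1951 and 2028 normalized counts in control DRGs against 2311, 2739 and 2495 in Tlx3cko DRGs. All 3 Tlx3cko libraries were above the controls by a narrow margin, and the log2 fold change of 0.26 (SE 0.09) was not called (edgeR adjusted p = 0.157). Cacna1c, the L-type pore of heart, smooth muscle and neurons, had 1676, 1239.7 and 1345 normalized counts in control DRGs against 1177, 1571 and 1518 in Tlx3cko DRGs, with overlapping groups (log2 fold change 0.00, 95% interval -0.27 to 0.28). Cacna1d, the L-type pore that opens at more negative potentials, had 113, 145 and 114 normalized counts in control DRGs against 141, 201 and 201 in Tlx3cko DRGs; the groups overlapped and the log2 fold change of 0.54 was not called (edgeR adjusted p = 0.169). For Cacna1e, the R-type pore, the values were 148, 114 and 161 normalized counts in control DRGs against 109.7, 172 and 155 in Tlx3cko DRGs, again overlapping. Cacna1f, the retinal L-type pore, was nearly absent, with at most 8 counts in any library. Over all 10 pores the summed level per kilobase was 709 ± 17.2 in control and 724 ± 45.9 in Tlx3cko libraries (exact permutation p = 0.7), and of that sum Cacna1i made up 5.33% ± 1.55 in control and 1.33% ± 0.344 in Tlx3cko libraries and Cacna1a 25.9% ± 1.87 in control and 30.4% ± 0.668 in Tlx3cko libraries, both without overlap.

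**Figure D2:**
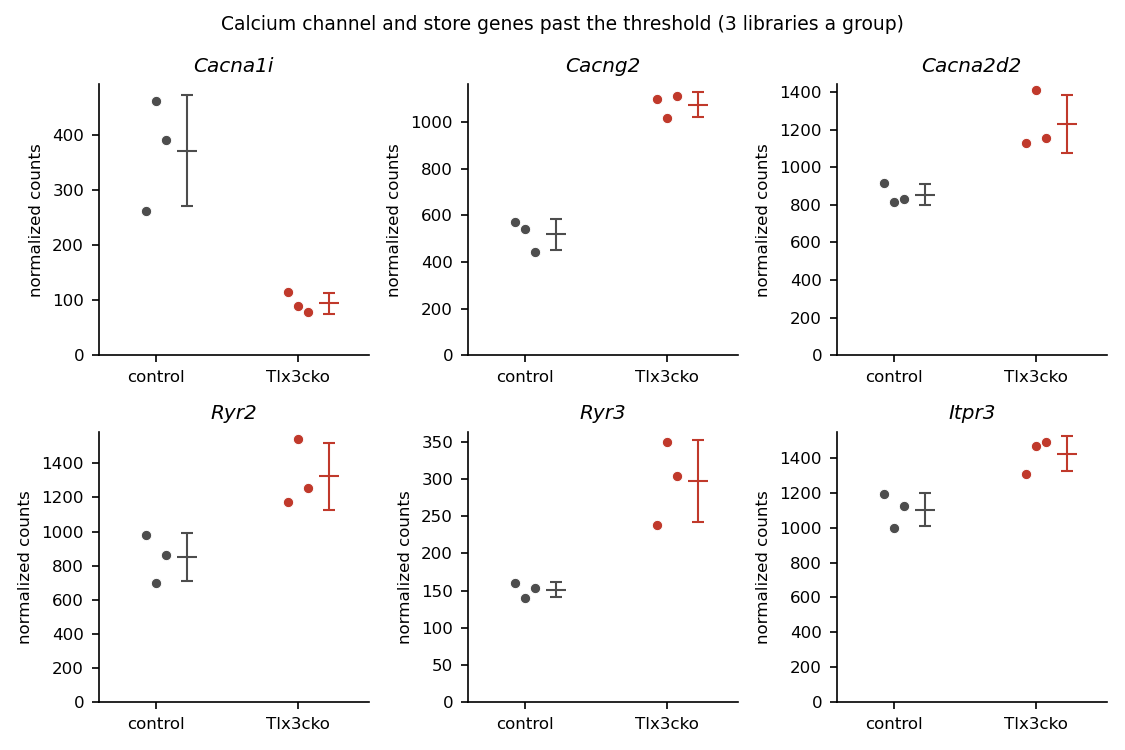
Normalized counts of the 6 calcium genes past the threshold, 1 point a library, with control in grey and Tlx3cko in red; horizontal bars are means and vertical bars are SDs of 3 libraries. In every panel the groups do not overlap: Cacna1i is lower in the 3 Tlx3cko libraries and the other 5 genes are higher.

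Of the alpha2delta subunits, which raise channel density at the membrane and include the gabapentinoid-binding products of Cacna2d1 and Cacna2d2, only Cacna2d2 was called. Cacna2d2 (ENSMUSG00000010066, chr9:107399612-107529343, plus strand, GRCm38) had 917, 817 and 829.6 normalized counts in control DRGs against 1131, 1411 and 1155 in Tlx3cko DRGs. All 3 Tlx3cko libraries were above all controls, with replicate 2 the highest. The means were 855 ± 54.8 and 1232 ± 155 (SD, n = 3), a 1.44-fold level, with a log2 fold change of 0.53 (SE 0.10, 95% interval 0.30 to 0.75; edgeR adjusted p = 0.0102). The edgeR adjusted p was 0.0528 without Tlx3cko replicate 2 and 0.0756 with control replicate 3 alone, at log2 fold changes of 0.43 and 0.57. Cacna2d1 had 1673, 1583 and 2057 normalized counts in control DRGs against 1964, 2027 and 1782 in Tlx3cko DRGs, with overlapping groups (log2 fold change 0.12, 95% interval -0.10 to 0.34). Cacna2d3 had 989.8, 1013 and 1034 normalized counts in control DRGs against 1083, 1081 and 1019 in Tlx3cko DRGs, also overlapping (log2 fold change 0.07, 95% interval -0.11 to 0.25). Cacna2d4, an alpha2delta subunit of the retina, had at most 3 counts in any library, so no fold is given. Per kilobase, Cacna2d2 had the smallest mean share of the 3 expressed subunits in control, 29.4% ± 2.44 of the family, and 35.8% ± 2.33 in Tlx3cko libraries, beside Cacna2d1 at 35.9% ± 1.17 (share of Cacna2d2, exact permutation p = 0.1, the smallest possible).

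No gene of the beta subunits, the cytoplasmic partners that traffic the pore, was called. Cacnb3 had the highest level per kilobase of all 37 genes and was measured at 6825, 7002 and 6619 normalized counts in control DRGs against 6975, 5694 and 5523 in Tlx3cko DRGs, with overlapping groups (log2 fold change -0.17, 95% interval -0.36 to 0.02). Cacnb1 had 1144, 1115 and 1098 normalized counts in control DRGs against 1413, 1287 and 1269.5 in Tlx3cko DRGs. Here the groups did not overlap, with a log2 fold change of 0.24 (SE 0.08; edgeR adjusted p = 0.154). Cacnb2 had 50.7, 41.9 and 34.3 normalized counts in control DRGs against 67.4, 77.4 and 76.8 in Tlx3cko DRGs, again without overlap, with a log2 fold change of 0.81 (SE 0.25; edgeR adjusted p = 0.107). Cacnb4 was measured at 2279.6, 1907 and 2195 normalized counts in control DRGs against 2213, 2212 and 2198 in Tlx3cko DRGs, with overlapping groups. Of its exonic bases, 16.0% lie under a gene on the other strand, and 7.32% do so in Cacnb2; the library kit does not mark strand, so such reads cannot be told apart.

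Among the gamma subunits Cacng2 rose in Tlx3cko DRGs. Cacng2 encodes stargazin, known chiefly as an auxiliary subunit that brings AMPA-type glutamate receptors to synapses rather than as a calcium channel subunit. The gene (ENSMUSG00000019146, chr15:77991748-78120028, minus strand, GRCm38; 5.86% of its exonic bases under A730060N03Rik on the other strand) had 573, 539.6 and 444 normalized counts in control DRGs against 1100.1, 1016 and 1110.1 in Tlx3cko DRGs. The 3 Tlx3cko libraries lay close together and all controls lay far below them. The means were 519 ± 66.8 and 1075 ± 51.9 (SD, n = 3), a 2.07-fold level, with a log2 fold change of 1.05 (SE 0.11, 95% interval 0.82 to 1.29; edgeR adjusted p = 8.54e-05). The call held in all 14 alternatives, at 0.95 to 1.14 with each library left out and 1.28 with control replicate 3 alone (edgeR adjusted p = 0.00036).

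The other gamma genes that accompany AMPA receptors were not called, and their fold changes differed in sign. Cacng8 had 23.7, 18.0 and 16.0 normalized counts in control DRGs against 32.7, 51.2 and 52.2 in Tlx3cko DRGs. It was higher in all 3 Tlx3cko libraries at low counts, with a log2 fold change of 1.24 (SE 0.35; edgeR adjusted p = 0.0677, 0.0489 without Tlx3cko replicate 1 and 0.033 with no filter on low counts). Cacng3 had 15.1, 23.9 and 30.3 normalized counts in control DRGs against 8.66, 9.19 and 6.89 in Tlx3cko DRGs, lower without overlap, with a log2 fold change of -1.49 (SE 0.48; edgeR adjusted p = 0.123). Cacng4 had 111, 88.8 and 119.7 normalized counts in control DRGs against 102, 106 and 116 in Tlx3cko DRGs, with overlapping groups (95% interval of the log2 fold change -0.40 to 0.44). Cacng7, the gamma gene with the highest level, had 1924, 1708 and 1734 normalized counts in control DRGs against 2161, 1850.2 and 2267 in Tlx3cko DRGs. Cacng5, its closest relative, had 319, 265 and 246 normalized counts in control DRGs against 237, 236 and 255 in Tlx3cko DRGs. Both overlapped, with log2 fold changes of 0.23 and -0.19. Per kilobase, Cacng2 made up 9.93% ± 0.944 in control and 16.7% ± 0.698 in Tlx3cko libraries of the family, and Cacng7 77.4% ± 0.871 in control and 73.0% ± 1.45 in Tlx3cko libraries (exact permutation p = 0.1 for each, the smallest possible).

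Of the channels of the internal store, both ryanodine receptors outside the skeletal muscle type rose. Ryr2, the receptor of heart and many neurons (ENSMUSG00000021313, chr13:11553102-12106945, minus strand, GRCm38), had 981, 700.1 and 865 normalized counts in control DRGs against 1173, 1542 and 1253 in Tlx3cko DRGs. All 3 Tlx3cko libraries were above all controls, and the highest was replicate 2. The means were 849 ± 141 and 1323 ± 194 (SD, n = 3), a 1.56-fold level, with a log2 fold change of 0.64 (SE 0.13, 95% interval 0.36 to 0.92; edgeR adjusted p = 0.013). The edgeR adjusted p was 0.0524 without control replicate 2, 0.0686 without Tlx3cko replicate 2 and 0.0725 with control replicate 3 alone, with log2 fold changes of 0.52, 0.52 and 0.61. Ryr3, the third receptor, found at lower levels in brain and other tissues (ENSMUSG00000057378, chr2:112631355-113217096, minus strand, GRCm38; 4.83% of its exonic bases under Aven on the other strand), had 161, 141 and 153 normalized counts in control DRGs against 239, 349 and 304 in Tlx3cko DRGs. The 3 controls were nearly equal, and all Tlx3cko libraries were above them. The means were 152 ± 10.2 and 297 ± 55.5 (SD, n = 3), a 1.96-fold level, with a log2 fold change of 0.97 (SE 0.16, 95% interval 0.61 to 1.32; edgeR adjusted p = 0.00381). With control replicate 3 alone the log2 fold change of Ryr3 was 0.95 and was not called (edgeR adjusted p = 0.0687).

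The level per kilobase of the 3 ryanodine receptors together was 43.0 ± 8.08 in control and 66.7 ± 7.28 in Tlx3cko libraries, a ratio of 1.55 without overlap (exact permutation p = 0.1). Within the family Ryr2 held 68.8% ± 2.14 in control and 68.7% ± 2.49 in Tlx3cko libraries and Ryr3 18.9% ± 2.29 in control and 23.4% ± 2.34 in Tlx3cko libraries (exact permutation p = 1 and 0.2). Ryr1, the receptor of skeletal muscle, had 190.0, 73.8 and 95.7 normalized counts in control DRGs against 164, 63.0 and 106 in Tlx3cko DRGs. Its groups overlapped, with the highest value in control replicate 1, and its log2 fold change was -0.09 (95% interval -0.86 to 0.69).

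The IP3 receptors open downstream of phospholipase C, the pathway of many Gq-coupled receptors of nociceptors. Itpr3, the IP3 receptor with the highest level per kilobase (ENSMUSG00000042644, chr17:27057304-27122223, plus strand, GRCm38; 2.58% of its exonic bases under Itpr3os on the other strand), had 1189, 998 and 1122 normalized counts in control DRGs against 1307, 1467 and 1491 in Tlx3cko DRGs. All 3 Tlx3cko libraries were above all controls. The means were 1103 ± 96.9 and 1422 ± 100.04 (SD, n = 3), a 1.29-fold level, with a log2 fold change of 0.37 (SE 0.09, 95% interval 0.16 to 0.57; edgeR adjusted p = 0.0462). This was the call closest to the threshold: it was lost in 6 of the 14 alternatives, with an edgeR adjusted p of 0.17 without control replicate 2, 0.103 without control replicate 3, 0.161 without Tlx3cko replicate 2, 0.2 without Tlx3cko replicate 3, 0.0802 with the replicate number as a block and 0.235 with control replicate 3 alone. Itpr1, the type best known from brain, had 177, 136 and 199 normalized counts in control DRGs against 224, 181 and 168 in Tlx3cko DRGs. Itpr2 had 63.7, 58.8 and 36.7 normalized counts in control DRGs against 60.6, 48.6 and 62.0 in Tlx3cko DRGs. The groups overlapped for both, with log2 fold changes of 0.16 (95% interval -0.23 to 0.56) and 0.12 (95% interval -0.48 to 0.72). Per kilobase Itpr3 held 90.5% ± 0.195 in control and 91.6% ± 1.53 in Tlx3cko libraries of the family, and the family sum was 135 ± 12.1 in control and 172 ± 9.35 in Tlx3cko libraries, a ratio of 1.27 without overlap (exact permutation p = 0.1).

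Store-operated entry, the route that refills an emptied store, had no called member, and the fold changes of its Orai pores differed in sign. Orai2 had 1293, 995 and 1029.8 normalized counts in control DRGs against 1525, 1380.4 and 1438 in Tlx3cko DRGs. The groups did not overlap, and the log2 fold change was 0.39 (SE 0.10, 95% interval 0.16 to 0.62; edgeR adjusted p = 0.0564). It was called in 6 of the 14 alternatives, among them DESeq2 (adjusted p = 0.0113), limma-voom (adjusted p = 0.0437) and edgeR without control replicate 1 (adjusted p = 0.00581). Orai1, the pore of the classical calcium release-activated current, had 228, 237 and 191 normalized counts in control DRGs against 135, 167 and 183 in Tlx3cko DRGs. It was lower in all 3 Tlx3cko libraries, with a log2 fold change of -0.44 (SE 0.17; edgeR adjusted p = 0.218). Orai3 had 274, 273 and 193 normalized counts in control DRGs against 209.8, 211 and 233 in Tlx3cko DRGs, with overlapping groups. Per kilobase, Orai2 made up 46.4% ± 4.30 in control and 58.1% ± 3.11 in Tlx3cko libraries of the 3 Orai genes and Orai1 24.4% ± 1.82 in control and 17.1% ± 2.38 in Tlx3cko libraries, while the sum of the 3 was 393 ± 48.6 and 410.5 ± 13.6 (exact permutation p = 0.7). The Orai2 share was 48.4%, 41.5% and 49.4% in control DRGs against 61.6%, 57.0% and 55.6% in Tlx3cko DRGs, without overlap (exact permutation p = 0.1). Of the store sensors, Stim1 had 994, 903 and 996 normalized counts in control DRGs against 982, 1012 and 970.4 in Tlx3cko DRGs. Stim2, which responds to smaller losses of stored calcium, had 457, 386 and 434 normalized counts in control DRGs against 552, 480.3 and 455 in Tlx3cko DRGs. The groups overlapped for both sensors, with 95% intervals of the log2 fold change of -0.15 to 0.22 for Stim1 and -0.03 to 0.48 for Stim2. In all, 40 shares were compared over the 8 families and the T-type group, and 21 of them did not overlap and so reached an exact permutation p of 0.1 (0.19 after Benjamini-Hochberg adjustment), below which this design cannot go. Shares of a family add up to the whole, so a rise in 1 member lowers others, and these are not separate results. The T-type pores were counted in the alpha1 family as well. Summed levels per kilobase were compared for the same 9 groups. The alpha2delta (ratio 1.18), gamma (1.24), ryanodine receptor and IP3 receptor sums were higher and the T-type sum lower, without overlap. Each of these had an exact permutation p of 0.1 (0.18 after Benjamini-Hochberg adjustment over the sums), and the other sums overlapped.

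**Figure D3:**
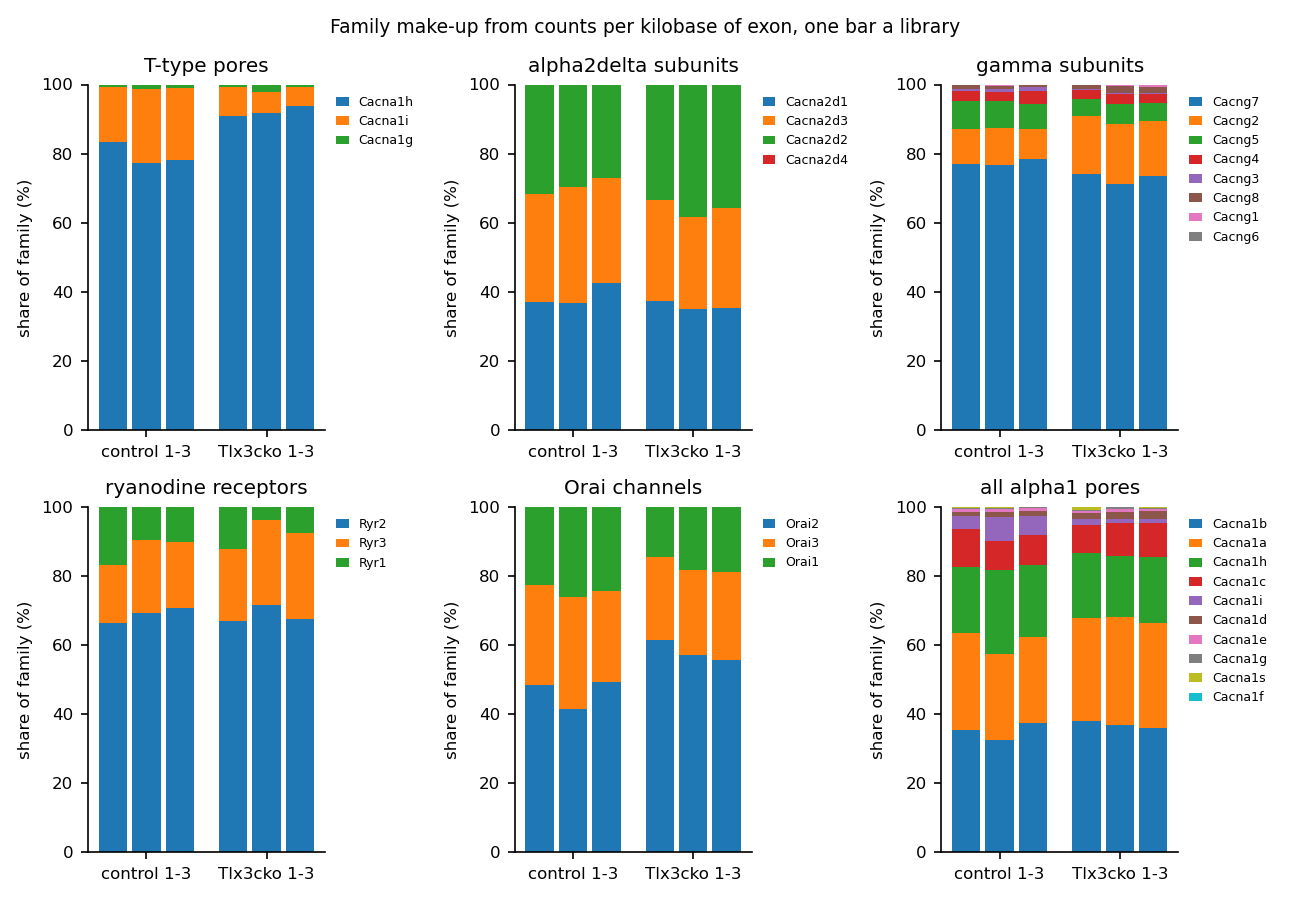
Share of each family held by its members in every library, from counts per kilobase of exon, for the T-type pores, alpha2delta subunits, gamma subunits, ryanodine receptors, Orai channels and all alpha1 pores; each stacked bar is 1 library. The Cacna1i segment of the T-type pores averages 19.5% in control and 6.62% in Tlx3cko libraries, the Orai2 segment 46.4% and 58.1%, and the Ryr2 segment 68.8% and 68.7%.

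The 37 genes spanned a wide range of level. In control DRGs, as normalized counts per kilobase of exon, Cacnb3 was highest at 1699.6 ± 47.8, followed by Cacng7 at 733 ± 48.3, Cacna1b at 249 ± 22.3, Cacnb1 at 247 ± 5.19 and Cacnb4 at 237 ± 21.8 (SD, n = 3). The control ranges of Cacnb3 and Cacng7, and of Cacng7 and Cacna1b, did not overlap, while those of Cacna1b, Cacnb1 and Cacnb4 did for each neighbouring pair. The most abundant genes of the other families were Orai2 at 182 ± 26.8, Cacna2d1 at 143 ± 20.3, Itpr3 at 122 ± 10.7, Stim1 at 93.0 ± 5.16 and Ryr2 at 29.5 ± 4.91. Lengths here join all annotated exons of a gene, and ranks depend on that choice. By longest transcript, Cacna2d3 (3695 bases) would stand above Cacna2d1 (7436 bases), and Cacna1a (7926 bases) above Cacna1b (9736 bases). The 6 called genes stood at neither end of this order: Itpr3, Cacna2d2 and Cacng2 were among the upper 15 of the 37, Cacna1i and Ryr2 were 20th and 22nd, and Ryr3 was 27th at 7.99 ± 0.537. In Tlx3cko libraries Cacna1i stood at 9.55 ± 1.96 per kilobase, below its control level of 37.6 ± 10.2, and Cacng2 at 195 ± 9.42, above its control level of 94.2 ± 12.1.

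The members that belong to the contraction machinery of skeletal muscle were not called and varied with the library. Cacna1s, the skeletal muscle pore, had 17.3, 14.0 and 3.99 normalized counts in control DRGs against 44.3, 9.19 and 15.7 in Tlx3cko DRGs (part of its exonic bases lies under Gm37759 on the other strand). Cacng1, its gamma subunit, had 1, 4 and 0 counts in control DRGs against 3, 2 and 11 in Tlx3cko DRGs. Summed over 11 markers of skeletal muscle, the control libraries held 2670, 723 and 146 normalized counts and the Tlx3cko libraries 3523, 3055 and 1986. The groups overlapped through control replicate 1, and 1 of the 11 markers, the fast myosin gene Myh4, was called, higher in Tlx3cko. Ryr1 was likewise highest in control replicate 1, and Atp2a1, the calcium pump of fast muscle, had 913, 157 and 43.9 normalized counts in control DRGs against 902, 572 and 527 in Tlx3cko DRGs. The muscle sum was highest in replicate 1 of each genotype. The 5 members called higher were highest in replicate 1 of the controls and in replicate 2 or 3 of the Tlx3cko libraries. Some of these orders rest on small differences, as for Cacng2 with 1100.1 in Tlx3cko replicate 1 and 1110.1 in replicate 3. The orders were not tested. Markers of peptidergic neurons (2 of 5), of myelinated neurons (1 of 4) and of endothelium (1 of 4) were also called higher, with summed levels of 22199 to 23983, 27750.4 to 29475 and 595 to 711 normalized counts in control against 34952 to 37925, 35051 to 37152 and 798 to 871 in Tlx3cko DRGs, each sum without overlap. Of the 5 markers of immune cells 1 was called lower and 0 higher, with log2 fold changes of -0.73 to 0.08. Their sums were 914 to 1367 normalized counts in control and 528 to 781 in Tlx3cko libraries, without overlap. The part of these cell types and of muscle tissue in the members' values was not tested.

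**Figure D4:**
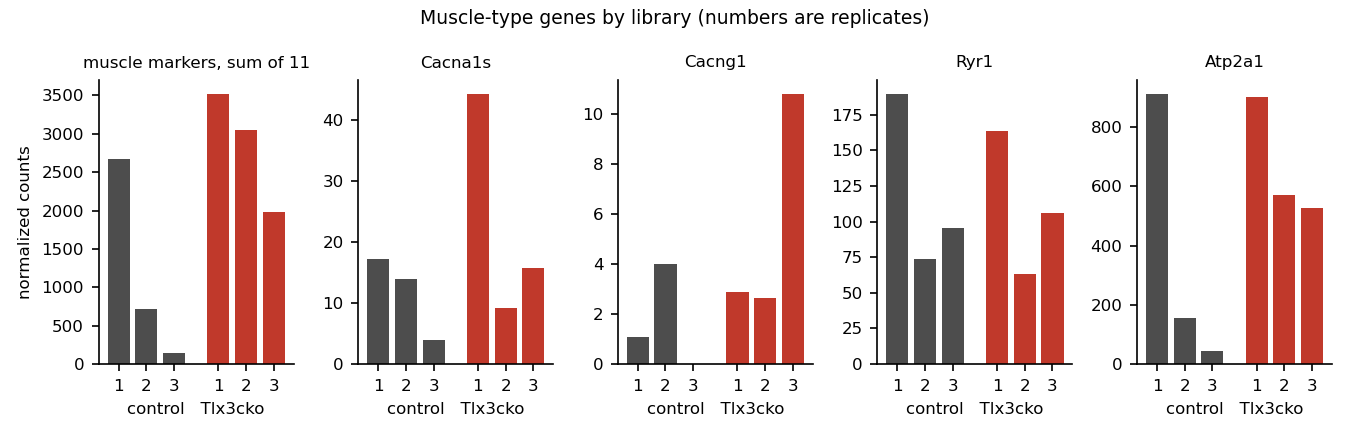
Normalized counts in each of the 6 libraries for the sum of 11 skeletal muscle markers, the muscle-type members Cacna1s, Cacng1 and Ryr1, and the muscle calcium pump Atp2a1; the vertical scale differs between panels and starts at 0. Control replicate 1 stands well above control replicates 2 and 3 in the marker sum, Ryr1 and Atp2a1.

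Other genes that handle calcium around these channels were mostly not called. Of 96 listed in 7 groups, 95 were tested, with a median log2 fold change of 0.039. Of these, 3 were called lower and 4 higher (edgeR adjusted p under 0.05), against 2.56% and 1.69% of all genes. None of the 19 partners of store release, the 10 partners of the muscle triad, the 14 tested calcium pumps and exchangers, the 8 genes of mitochondrial calcium uptake or the 8 regulators of store-operated entry was called by edgeR. In those groups 6, 4, 4, 0 and 1 genes were under an unadjusted p of 0.05 (14.5% of all genes), and DESeq2 called 2, 0, 1, 0 and 1 and limma-voom 1, 0, 0, 0 and 0. Of the 24 regulators of voltage-gated channels 2 were lower and 2 higher, and of the 12 calcium sensors and buffers 1 was lower and 2 were higher.

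Among the channel regulators, Camk2a, a calmodulin-dependent kinase subunit that phosphorylates calcium channels, had 4306, 3554 and 3849 normalized counts in control DRGs against 2875, 2709.7 and 2799.9 in Tlx3cko DRGs, without overlap (log2 fold change -0.48, SE 0.08; edgeR adjusted p = 0.00404). Camk2g, another subunit of the same kinase, had 6270.0, 5257 and 5771 normalized counts in control DRGs against 8012, 7048 and 7626 in Tlx3cko DRGs, higher without overlap (log2 fold change 0.39, SE 0.08; edgeR adjusted p = 0.015); it was picked out after its values were seen. These 2 called subunits lay in opposite directions. The kinase subunits Camk2b and Camk2d, in the same list, were not called. Their groups overlapped, with log2 fold changes of 0.13 and -0.21. Caln1, a calmodulin-like protein, had 367, 206 and 330.2 normalized counts in control DRGs against 512, 510.4 and 459.6 in Tlx3cko DRGs (log2 fold change 0.71, SE 0.17; edgeR adjusted p = 0.0365). Dpysl2, a cytoskeletal protein that binds N-type channels, had 5922, 4418 and 4064 normalized counts in control DRGs against 2904, 3702 and 3589 in Tlx3cko DRGs (log2 fold change -0.50, SE 0.13; edgeR adjusted p = 0.0497). Caln1 was higher and Dpysl2 lower without overlap. Leaving out 1 library took away the Caln1 call in 5 of 6 cases and the Dpysl2 call in 5 of 6, with edgeR adjusted p up to 0.125 and 0.155. Both calls were also lost with control replicate 3 alone (edgeR adjusted p = 0.0989 and 0.483), and that of Dpysl2 with limma-voom (adjusted p = 0.052), filterByExpr (0.0545) and the replicate number as a block (0.0663). Camk2g was lost without control replicate 2 (edgeR adjusted p = 0.0708), Tlx3cko replicate 1 (0.0503) or Tlx3cko replicate 3 (0.0724) and with control replicate 3 alone (0.0713), whereas Camk2a was called in all 14 alternatives.

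Of the sensors and buffers, Hpcal1, a neuronal calcium sensor, had 1798, 2480.4 and 2067 normalized counts in control DRGs against 1051, 1010.4 and 1066 in Tlx3cko DRGs. The 3 Tlx3cko libraries were close to each other and below every control, with a log2 fold change of -1.02 (SE 0.11; edgeR adjusted p = 1.05e-04), and the call held in all 14 alternatives. Pvalb, a calcium buffer of large myelinated sensory neurons and of fast muscle, had 1101, 885 and 819 normalized counts in control DRGs against 1581, 1285 and 1347 in Tlx3cko DRGs (log2 fold change 0.59, SE 0.12; edgeR adjusted p = 0.0116). Calb1, another buffer, had 699, 605 and 526 normalized counts in control DRGs against 778, 873 and 945 in Tlx3cko DRGs (log2 fold change 0.51, SE 0.12; edgeR adjusted p = 0.03). Both buffers were higher without overlap. The Pvalb call was lost without control replicate 2 (edgeR adjusted p = 0.056) or control replicate 3 (0.0534), and the Calb1 call without control replicate 2 (0.0993), control replicate 3 (0.117), Tlx3cko replicate 2 (0.102) or Tlx3cko replicate 3 (0.154). Of the markers of myelinated neurons, 1 of 4 was called higher, and of those of skeletal muscle, 1 of 11. The skeletal muscle markers differed in sign, with log2 fold changes of -1.86 to 2.87, and their sums overlapped between groups. The part of these tissues in the Pvalb value was not tested.

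**Figure D5:**
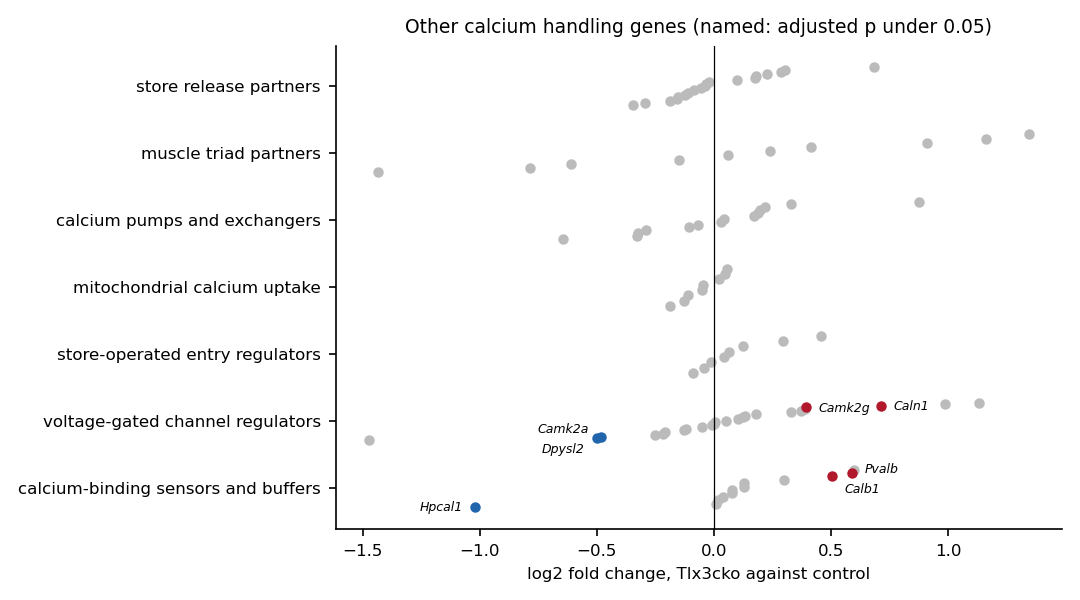
Log2 fold change of Tlx3cko against control DRGs for the 95 tested genes of the 7 calcium handling groups, 1 point a gene, with called genes named and coloured (blue lower, red higher) and the rest in grey. The 7 called genes lie in the 2 lowest groups, the channel regulators and the calcium sensors and buffers, and span -1.02 (Hpcal1) to 0.71 (Caln1).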

How the data were processed

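The authors deposited 1 table of raw read counts for 3 control and 3 Tlx3cko DRG libraries, without normalization. The submitters' processing notes name STAR 2.5.2a and mm10; the counting program, annotation and use of strand are not given in the sources used here. Symbols, lengths and positions come from GENCODE M21 (GRCm38), which matched 47224 of 47937 rows. Members and lists were chosen with earlier results of these data known.

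Genes with at least 10 counts in total (20006) were scaled by TMM and tested with edgeR 4.0.16 (glmQLFit and glmQLFTest, R 4.3.3), with Benjamini-Hochberg adjustment and a threshold of 0.05. Normalized counts are counts rescaled to an effective library of 14970767, the mean of the 6. Standard errors came from the F statistic. Members past the threshold, or without overlap between groups at a mean of at least 50 normalized counts, were described in full and the others by value or range. Of the calcium handling lists, called genes were named if their mean reached 50, at most 3 a list.

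Alternatives were DESeq2 1.42.0, limma-voom (limma 3.58.1), DESeq2 size factors or upper quartile scaling in edgeR, no low-count filter, filterByExpr, the replicate number as a block, each library left out, control replicate 3 alone and a 1.5-fold minimum. Libraries of 1 genotype differed by 4.46 to 10.7 chi-square units per degree of freedom, above sampling noise, and were kept as separate samples. Scripts were tested on simulated data.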

Additional observations from a re-analysis of the deposited data

How the results depend on the processing

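Across the 14 alternative fits no called member changed sign, and 12 uncalled members changed sign in 26 of 501 member values. Cacna1i was the 1 member called lower in every fit, and Cacng2 was called higher in every fit. The members called higher numbered 5 and came to 1 with control replicate 3 alone (Cacng2), 3 with a minimum of 1.5-fold (Cacng2, Ryr2 and Ryr3) and 2 to 6 with 1 library left out, the lowest without Tlx3cko replicate 2 (Cacng2 and Ryr3). Over all genes, 512 lower and 339 higher became 858 and 671 with no filter on low counts, 309 to 528 and 176 to 431 with 1 library left out, and the higher calls became 210 with control replicate 3 alone and 208 with a minimum of 1.5-fold. Of the calcium handling genes, 3 lower and 4 higher became 6 and 11 with no filter, 1 and 2 with a minimum of 1.5-fold and 2 to 4 and 0 to 7 with 1 library left out, the 0 being without control replicate 2, and DESeq2 called 9 higher. The causes were not tested. With no filter 26705 genes were tested in place of 20006. The fits with libraries left out tested the same 20006 genes, and the fold minimum kept a part of the main calls. Without length correction the rise in the share of Cacng2 among gamma genes was 11.1 points in place of 6.73.

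Same-numbered control and Tlx3cko libraries did not deviate together (correlations of deviations -0.0674, -0.0136 and -0.0578). Libraries with unlike numbers gave -0.0239 to 0.0807. With 3 libraries a group, such values cannot show whether the animals were paired, and the main fit treats them as unpaired. With the replicate number as a block, 462 genes were lower and 308 higher; members higher stayed at 5, with Orai2 gained and Itpr3 lost.

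Tested genes with few counts (Cacna1f, Cacna2d4, Cacng1 and Cacna1g) have intervals too wide at this depth to show a difference of moderate size. Sex and genotype were not balanced, and 1 control was of the same sex as the Tlx3cko libraries. Calls kept or lost with that control alone rest on a lone control assumed to vary like the others. They do not separate sex from genotype.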
